A study of Beta vulgaris subsp. vulgaris with 30 samples.

Results

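The comparison described here follows shoots of sugar beet seedlings (Beta vulgaris subsp. vulgaris) over 3 days in pots whose bases stood in water, with no ethanol. It takes 12 of the 30 libraries of the series, chosen by title: the 6 libraries W3d_rep1 to W3d_rep6, sampled after 3 days in water, and the 6 libraries BeforePretreatment_rep1 to BeforePretreatment_rep6, sampled at the start. All 21587 counted genes were considered, and 14128 of them passed the filter on low counts and were tested. The other 18 libraries, 6 each after ethanol, after water and freezing and after ethanol and freezing, entered the fit to steady the estimate of spread.

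Per the series description, the plants of every group grew in soil at 22 °C with 16 h of light and 8 h of dark, and were 7 days old when pretreatment began. The ethanol groups stood in 80 mM ethanol, and the frozen groups spent a night at -2.1 to -3.5 °C, although their titles carry F2h. The protocols attached to the samples differ: they speak of Arabidopsis, an age of 14 days, ethanol at 20 mM given over 6 days, and freezing at -4.0 °C. The gene identifiers are those of the beet assembly EL10.2, so the beet description is followed. No cultivar, genotype or hour of sampling is given. The group after water is later, older and has stood in water, and these differences from the start cannot be told apart, nor can any difference in hour. The labels call the tissue shoot. The sources used here pair no tissue marker with these identifiers, so that label was not checked.

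A seedling shoot of this age holds the cotyledons, the seed leaves that feed the plant first, and the apex from which true leaves emerge. In this stage the cotyledons expand and take up photosynthesis as the seed's stored reserves run down, and the first true leaves grow out. A shoot is a mixture of cell types, so fewer cells of a type and less RNA per cell cannot be told apart in any result below.

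Libraries were prepared with Lasy-Seq, a pooled RNA-seq method that starts from the poly(A) tail of messenger RNA, from 200 ng of RNA per library. The total count of a library lay between 6318167 and 14296414 after water and between 6658906 and 14171223 before pretreatment, and 13136 to 14893 against 13266 to 14332 genes had a read. Levels are CPM, the count scaled to a common library total, after TMM scaling, which corrects for a few genes taking a larger share of the reads. In a principal component analysis of the 12 libraries, component 1, with 14.1% of the variance, placed the water libraries at 26.6 to 60.0 and the libraries before pretreatment at -66.1 to -28.0. The groups did not overlap on it. Water replicate 3, the water library with the lowest total, stood apart on component 2 at 105.6. Before-pretreatment replicate 2, the library of lowest total in its group, also lay high there, at 59.9. Nothing in the labels says that the plants of different replicates came from separate cultures, so each p-value reflects only how the 30 samples of the fit vary within their groups, which may be technical.

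**Figure D1:**
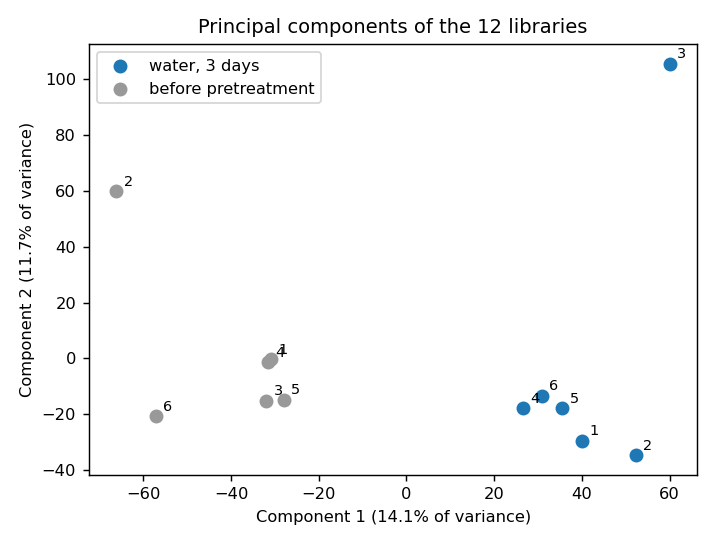
Principal components 1 and 2 of log2 CPM in the 12 libraries (blue, water for 3 days; grey, before pretreatment), with percent of variance on each axis and replicate numbers beside the points. Component 1 separates the groups, and water replicate 3 lies alone at the top right, at 105.6 on component 2.

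After 3 days in water 231 genes were higher (1.64% of those tested) and 206 were lower (1.46%) than before pretreatment, together 3.09%. A gene was called where the p of the quasi-likelihood test in edgeR, adjusted by Benjamini and Hochberg's method over all tested genes, was under 0.05. The median log2 change was 1.27 among the genes that rose and -0.96 among those that fell, against -0.011 over all tested genes. A change of 2-fold or more was found in 165 higher and 88 lower genes, and one of 4-fold or more in 40 and 29. The genes that rose held 3.04 to 3.82% of a library's counts after water and 1.27 to 1.91% before. Those that fell held 4.35 to 4.86% after water and 5.94 to 7.38% before. These shares describe genes chosen by the same values and test nothing.

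The libraries of the groups were fully apart for 54.1% of the 231 higher genes and for 57.8% of the 206 lower ones. Over all tested genes such a gap occurred in 2.72%, 1.32% with water higher and 1.39% with water lower. The called genes were chosen by the same values, so their larger shares test nothing. The calls depended on single libraries to some degree: 55.8% of the higher genes and 51.9% of the lower ones were called in every one of the 12 fits that left out 1 of the compared libraries.

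Well-covered genes were called most often. Of the 1006 genes averaging 100 CPM or more over all libraries, 74 rose and 45 fell, or 11.8%, with median log2 changes of 1.07 and -0.61. Between 20 and 100 CPM, 7.49% of 2483 genes were called. Below 1 CPM it was 0.564% of 1419 genes, and only very large changes passed there, with median log2 changes of 6.14 for 5 genes that rose and -6.32 for 3 that fell. The median standard error of a log2 change ran from 1.38 below 1 CPM to 0.139 from 100 CPM, so the small shares among weakly covered genes do not show that those genes held steady. Of the called genes, 400 had a read in all 12 libraries (91.5%, against 70.8% of the tested genes). Only 6 genes that rose had no read in any library before pretreatment, and only 1 gene that fell had none after water.

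**Figure D2:**
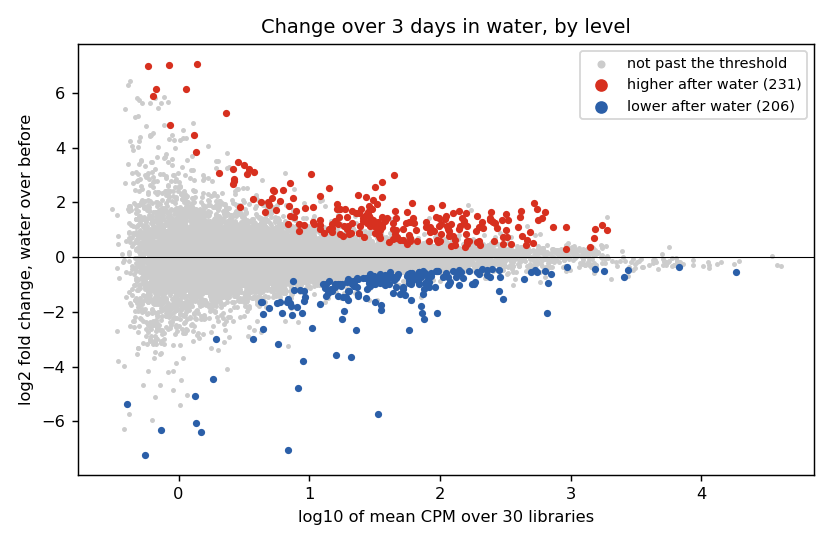
The log2 fold change, water over before pretreatment, against the log10 of the mean CPM for each of the 14128 tested genes. Red points are the 231 genes that rose, blue points the 206 that fell and grey points the genes not past the threshold, and the cloud narrows with level.

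The files pair none of these genes with a function. Matching by position to RefSeq's genes of the same assembly gave most of them a locus number and gave 15 a symbol, so the genes below are described by identifier, place and values. The 10 matched genes that rose with the lowest adjusted p had their libraries apart in every case. Bevul.4G241200 (RefSeq LOC104889944, chromosome 4, 64805600 to 64806209, plus strand) held 418, 535 and 680.0 CPM after water (lowest, median and highest library) and 146, 179.6 and 189 CPM before. Its log2 change was 1.69 ± 0.16 (SE, n = 6 each; adjusted p = 1.9e-08 by edgeR). Every water library held more than double the level of the highest library before pretreatment.

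Bevul.4G070200 (LOC104891457, chromosome 4, 13598419 to 13599083) held 682, 759 and 976 CPM after water and 237, 286 and 375 CPM before, a log2 change of 1.43 ± 0.16 (adjusted p = 2.21e-07 by edgeR). Bevul.3G135400 (LOC104906783, chromosome 3, 25544419 to 25545606) held 76.9, 90.7 and 97.2 CPM after water and 17.5, 27.6 and 37.4 CPM before, a log2 change of 1.68 ± 0.20 (adjusted p = 4.59e-07 by edgeR). In both genes every water library lay above every library before pretreatment. Bevul.4G146800 (LOC104891022, chromosome 4, 50242259 to 50242854) held 120.9, 185 and 271 CPM after water and 39.2, 62.7 and 76.6 CPM before, a log2 change of 1.67 ± 0.20. Bevul.7G194300 (LOC104899992, chromosome 7, 56880470 to 56883339) held 42.4, 59.7 and 76.3 CPM after water and 13.6, 17.6 and 25.4 CPM before, a log2 change of 1.65 ± 0.21. Their adjusted p values by edgeR were 4.59e-07 and 1.85e-06.

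Larger changes were seen in Bevul.5G150600 and Bevul.9G226100. Bevul.5G150600 (LOC104908091, chromosome 5, 44469089 to 44469890) held 42.3, 68.1 and 76.3 CPM after water and 8.52, 11.0 and 14.8 CPM before, a log2 change of 2.54 ± 0.29 (adjusted p = 2.21e-07 by edgeR). Bevul.9G226100 (LOC104904876, chromosome 9, 54387911 to 54390399) held 21.8, 56.3 and 68.8 CPM after water and 6.07, 7.21 and 10.9 CPM before, a log2 change of 2.75 ± 0.35 (adjusted p = 2.32e-06 by edgeR). In both, the lowest water library was still well above the highest library before pretreatment. The remaining 3 of the 10, Bevul.5G013300, Bevul.7G211000 and Bevul.7G211200, lie in runs of neighbouring genes and are described with them.

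**Figure D3:**
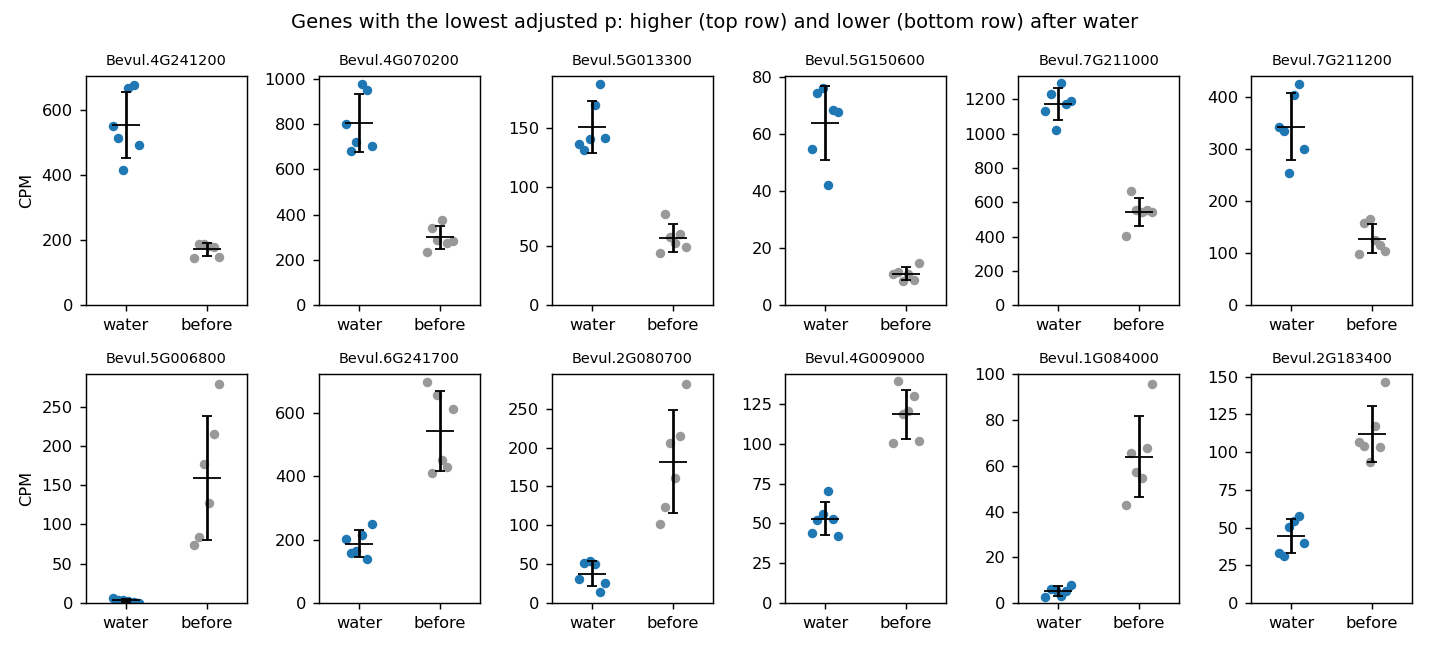
CPM by library for 6 genes that rose (top row) and 6 that fell (bottom row), water for 3 days at left in blue and before pretreatment at right in grey. Bars give the mean and SD over 6 libraries, the axes start at 0, and in all 12 panels the groups do not overlap.

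Among the genes that fell, the change of Bevul.5G006800 stood out. Bevul.5G006800 (LOC104892050, chromosome 5, 906537 to 908638, minus strand) held 0.185, 3.21 and 6.31 CPM after water and 73.9, 152 and 278 CPM before, a log2 change of -5.73 ± 0.62 (n = 6 each; adjusted p = 2.21e-07 by edgeR). A transcript present in every library at the start was thus near the limit of detection in water replicate 6, with 2 reads. The other water libraries had 18 to 61 reads. Its level stayed low in the other groups as well, at 2.17 ± 1.74 CPM after ethanol, 1.95 ± 1.64 after water and freezing and 1.26 ± 1.02 after ethanol and freezing (mean ± SD, n = 6 each).

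The next 4 matched genes by adjusted p fell less far. Bevul.6G241700 (LOC104897975, chromosome 6, 71487794 to 71489328) held 138, 182 and 249 CPM after water and 411, 533 and 697 CPM before, a log2 change of -1.53 ± 0.17 (adjusted p = 2.21e-07 by edgeR). Bevul.2G080700 (LOC104887209, chromosome 2, 18818404 to 18824182) held 14.4, 40.1 and 54.3 CPM after water and 102.1, 184 and 282 CPM before, a log2 change of -2.28 ± 0.30. Bevul.4G009000 (LOC104891849, chromosome 4, 1014217 to 1022726) held 42.3, 52.5 and 70.7 CPM after water and 100.3, 119.7 and 139 CPM before, a log2 change of -1.16 ± 0.16. The first 2 varied more between libraries at the start than the third did. Bevul.1G084000, which belongs to a run of neighbours, is the fourth.

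The remaining 5 had log2 changes between -2.03 and -1.33. Bevul.5G019000 (LOC104892173, chromosome 5, 2525540 to 2526026) held 23.7, 37.7 and 56.4 CPM after water and 58.1, 157 and 233 CPM before, so its groups nearly touched. Bevul.3G196000 (LOC104889360, chromosome 3, 50843012 to 50844580) held 5.59, 10.8 and 18.1 CPM after water and a tight 28.3, 32.3 and 37.7 CPM before. Bevul.2G183400 on chromosome 2 had a log2 change of -1.33 ± 0.19, Bevul.8G190700 on chromosome 8 of -1.93 ± 0.27 and Bevul.3G060300 on chromosome 3 of -1.75 ± 0.27. Over these 5 the adjusted p by edgeR was 6.64e-05 or lower.

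The 4 largest falls and the 4 largest rises by fold, among matched genes averaging 5 CPM or more in 1 of the groups, were mostly in weakly covered genes. Bevul.6G233600 (LOC104897889, chromosome 6) had 4 reads after water, all in replicate 1, against 17 to 86 reads in each library before pretreatment. Bevul.3G115600 (LOC104889037, chromosome 3, 17432020 to 17433287) had 6 reads after water, all in replicate 5, against 25 to 160 reads per library before. It had no read in any of the 6 ethanol libraries. Bevul.7G010400 (LOC104898204, chromosome 7, 1423924 to 1426875) held 0, 1.00 and 3.93 CPM after water and 20.6, 29.4 and 80.6 CPM before, a log2 change of -4.79 ± 0.93 (n = 6 each; adjusted p = 0.00139 by edgeR). The fourth is Bevul.5G006800, given above. All 4 had their libraries apart.

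Of the largest rises, Bevul.2G018600 (LOC104887719, chromosome 2, 2434785 to 2436388) was the best covered, at 9.53, 23.2 and 46.8 CPM after water and 0.706, 3.02 and 7.03 CPM before, a log2 change of 2.99 ± 0.42 (n = 6 each; adjusted p = 1.55e-05 by edgeR). Bevul.8G014600 (LOC104900577, chromosome 8, 1943179 to 1944005) held 5.68, 16.4 and 37.5 CPM after water and 0.109, 1.47 and 8.82 CPM before, a log2 change of 3.04 ± 0.66 (adjusted p = 0.00514). Its groups overlapped, and its call was lost with limma-voom (adjusted p = 0.126). Bevul.6G033300 and Bevul.9G190500 had median levels of 5.41 and 4.10 CPM after water and 0.323 and 0.281 CPM before. Their log2 changes were 3.11 ± 0.64 and 3.35 ± 0.92, and in both the groups lay apart by a small margin. The call of Bevul.9G190500 (adjusted p = 0.034 by edgeR) was lost without before-pretreatment replicates 1, 2, 3 or 4 (0.0773, 0.0707, 0.0776 and 0.0739) or water replicates 2 or 4 (0.0974 and 0.0658), and with limma-voom (0.0586).

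Several of the strongest changes lay side by side on a chromosome. This was noticed after the values were seen, and every gene between the outermost called genes is counted. Among 9862 pairs of directly adjacent genes that were both tested, 11 pairs rose together, 4 fell together and 5 moved in opposite directions. Another 582 held 1 called gene and 9260 held none, where 3.09% of all tested genes were called. How many such pairs that share alone would give was not tested. Allowing 1 gene between them, called genes formed 26 runs, of which 12 held only genes that rose, 6 only genes that fell and 8 both. In 4 runs at least 3 genes moved the same way. The pairs and the runs that fell include Bevul.9G157700 with Bevul.9G157800, which overlap by 1065 bases on the same strand and can share reads. The files do not say how similar these neighbours are in sequence, and reads could be split or shared between near-identical copies, so their separate values are uncertain.

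A run on chromosome 7 from 58734412 to 58809063 holds 8 genes, of which 7 were tested and 5 rose. Bevul.7G211000 (LOC104900155) held 1021, 1182 and 1293 CPM after water and 404, 549 and 666 CPM before, a log2 change of 1.11 ± 0.13 (n = 6 each; adjusted p = 2.21e-07 by edgeR). Bevul.7G211200 (LOC104900158) held 253, 338 and 424 CPM after water and 98.3, 119.6 and 166 CPM before, a log2 change of 1.43 ± 0.16. Bevul.7G211400, which has no RefSeq match, held 485, 543 and 598 CPM after water and 124.5, 217 and 239 CPM before, a log2 change of 1.45 ± 0.17. In these 3 genes, and in Bevul.7G211300 (0.74 ± 0.12) and Bevul.7G211500 (0.91 ± 0.15), every water library lay above every library before pretreatment. Next to them Bevul.7G211600 held 1520.2 to 1704 CPM after water and 1224 to 1714 CPM before (log2 change 0.10 ± 0.11; adjusted p = 0.774). Beyond it Bevul.7G211700 fell by 0.53 on the log2 scale (SE 0.14; adjusted p = 0.0274 by edgeR). Its call was lost without before-pretreatment replicates 2 or 6 (0.0666 and 0.105) or water replicates 2 or 6 (0.0807 and 0.0692). It was also lost with the 12 compared libraries fitted alone (0.0665).

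On chromosome 5, 3 successive genes between 1764976 and 1778550 rose by similar amounts. Bevul.5G013300 (LOC104908208) held 132, 141 and 187 CPM after water and 44.2, 55.2 and 77.3 CPM before, a log2 change of 1.41 ± 0.16. Bevul.5G013400, with no RefSeq match, held 252, 325 and 394 CPM after water and 103.7, 135 and 147 CPM before, a log2 change of 1.33 ± 0.15. Bevul.5G013500 followed with 1.25 ± 0.16. The highest of the adjusted p values was 2.32e-06 by edgeR, and all 3 had their libraries apart.

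On chromosome 9, 3 successive genes between 48384361 and 48399916 rose as well. Bevul.9G170700 (LOC104904353) held 1440.5, 1795 and 3093 CPM after water and 775, 894 and 1277 CPM before, a log2 change of 1.01 ± 0.15. Bevul.9G170800 held 319.9, 629 and 1195 CPM after water and 120.1, 227 and 291 CPM before, a log2 change of 1.65 ± 0.28. Both spread widely after water without meeting the range at the start. Bevul.9G170600 held 12.6, 20.1 and 35.6 CPM after water and 3.47, 6.96 and 11.9 CPM before, a log2 change of 1.47 ± 0.37 (adjusted p = 0.0189 by edgeR). Its call was lost without before-pretreatment replicate 1 (0.0569) or water replicate 4 (0.0714), and with limma-voom (0.152).

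The run that fell lies on chromosome 1 between 41493441 and 41549352, with all 3 genes on the plus strand. Bevul.1G083800 (LOC104905911) held 12.5, 23.6 and 56.8 CPM after water and 148, 173 and 238 CPM before, a log2 change of -2.66 ± 0.42. Bevul.1G083900 (LOC104905908) held 1.68, 2.46 and 17.9 CPM after water and 25.3, 52.9 and 112.95 CPM before, a log2 change of -3.56 ± 0.63. Bevul.1G084000 (LOC104905907) held 2.38, 5.60 and 7.95 CPM after water and 43.1, 61.5 and 95.7 CPM before, a log2 change of -3.64 ± 0.50 (n = 6 each; adjusted p = 9.37e-06 by edgeR). Water libraries lay below all libraries at the start in each gene.

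**Figure D4:**
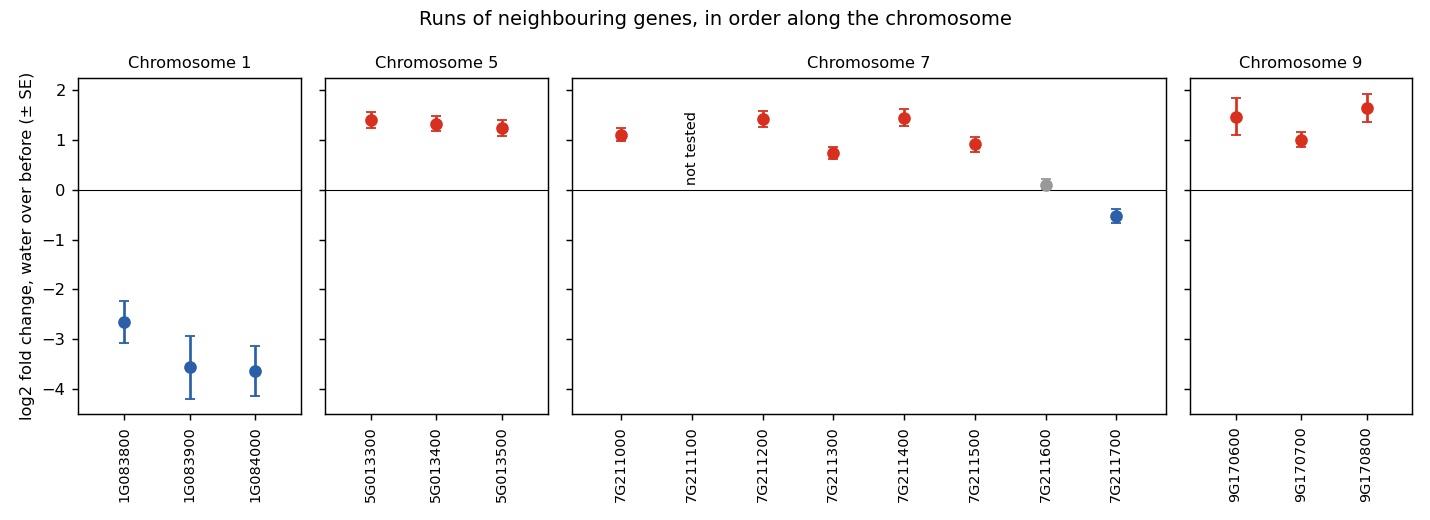
The log2 fold change, water over before pretreatment, with its SE, for each gene of the 4 runs in order along the chromosome (red, rose; blue, fell; grey, not past the threshold). The chromosome 5 and 9 genes all lie at 1.01 or above, the chromosome 1 genes at -2.66 or below, and 1 gene of the chromosome 7 run was not tested.

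Called genes were not spread evenly over the chromosomes, from 2.17% of the tested genes on chromosomes 1 and 8 to 4.72% on chromosome 2 and 4.8% on chromosome 9, a description with no test. Most called genes that matched RefSeq are annotated as protein coding, 190 that rose and 174 that fell, or 3.0% of the 12142 tested. Of 64 tested long noncoding RNAs 3 were called, and of 44 pseudogenes 1 was. These 4 were singled out for their class after their values were seen.

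The noncoding RNA Bevul.1G033300 (LOC104905597, chromosome 1) rose, at 289.9, 326 and 502 CPM after water and 153, 214 and 274 CPM before (log2 change 0.79 ± 0.17; adjusted p = 0.0063 by edgeR). Bevul.9G157700 (LOC125493172, chromosome 9) fell by 1.00 on the log2 scale (SE 0.17). It overlaps the next called gene, Bevul.9G157800, by 1065 bases on the same strand, and reads from that stretch cannot be told apart. How many reads of Bevul.9G157700 come from there was not examined. Bevul.9G071300 and the pseudogene Bevul.8G032600 had adjusted p values of 0.0412 by edgeR. Leaving out any 1 of before-pretreatment replicates 2 to 6 or water replicates 1 to 4 and 6 ended that of Bevul.9G071300 (0.0524 to 0.112), and leaving out any 1 of before-pretreatment replicates 2, 5 and 6 or any water replicate ended that of Bevul.8G032600 (0.0575 to 0.123). Among genes with no RefSeq match, 39 rose and 30 fell (3.71% of 1861). The lowest adjusted p of those that fell was that of Bevul.7G027700, followed by Bevul.8G021400 (chromosome 8), which held 47.2, 61.6 and 71.9 CPM after water and 100.01, 116.95 and 194 CPM before (log2 change -1.08 ± 0.15; adjusted p = 7.54e-06).

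The 10 genes with the most reads held 22.3 ± 1.53% of the counts after water and 24.4 ± 1.55% before (SD, n = 6 each), with an exact permutation p of 0.039 (two-sided), or 0.104 after Benjamini-Hochberg adjustment over 4 library measures. Of these 10, singled out after the values were seen, Bevul.2G213500 (LOC104906047, chromosome 2) passed the test across all genes, with 14586, 19908 and 21110.0 CPM after water and 20143, 27915 and 32294 CPM before (log2 change -0.53 ± 0.15; adjusted p = 0.0408 by edgeR). That call was lost in 11 of the 22 other fits, among them those without before-pretreatment replicates 1, 2, 3 or 6 or any water replicate but the third (0.0516 to 0.115). Of all tested genes averaging 100 CPM or more, 11.8% were called. Its near neighbour Bevul.2G213400 held 37941 to 55605 CPM after water and 41116 to 52088 CPM before, a log2 change of 0.03 ± 0.19. The rest of the 10 had log2 changes between -0.31 and -0.13, none past the threshold in the main fit. Among them were the neighbours Bevul.2G213200 (-0.31 ± 0.11) and Bevul.2G213100 (-0.13 ± 0.22). Bevul.7G217400 (-0.30 ± 0.09; adjusted p = 0.0828 by edgeR), also of the 10, passed with limma-voom (0.0454) and without before-pretreatment replicate 5 (0.0298).

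All 15 genes with a symbol were tested and none passed the threshold, which 3.09% of all tested genes passed. At that share, none among 15 says little about these genes. The pseudo-response regulator BTC1 (Bevul.2G112000, chromosome 2), which sets bolting time in beet, held 23.8, 29.8 and 36.4 CPM after water and 34.5, 40.8 and 53.1 CPM before (log2 change -0.51 ± 0.17; adjusted p = 0.105 by edgeR). PRR7, a clock gene, had a log2 change of -0.09 ± 0.29. The nitrate reductase gene nr1 (Bevul.3G009200, chromosome 3), which takes the first step of nitrate assimilation, held 166, 183 and 202 CPM after water and 85.2, 142 and 178 CPM before (log2 change 0.37 ± 0.16; adjusted p = 0.26). A p above the threshold does not show that the levels were equal.

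Among the other genes with a symbol are a few of sugar and starch metabolism. The sucrose transporter gene sut1 had a log2 change of -0.42 ± 0.26, the sucrose synthase gene SBSS1 of -0.10 ± 0.25 and agpS1, a small subunit gene of the starch enzyme ADP-glucose pyrophosphorylase, of 0.58 ± 0.26. SBSPS1, a sucrose-phosphate synthase gene, had 0.01 ± 1.05. BV-70/5 (Bevul.2G111200, chromosome 2), of the vacuolar proton pump, held 345, 366 and 382 CPM after water and 294, 315 and 339 CPM before. Its libraries were apart by a small margin, but its log2 change of 0.21 ± 0.09 did not pass (adjusted p = 0.266 by edgeR). The other pump gene, BV-16/1, had 0.05 ± 0.13. CENP-C, which encodes a protein of the centromere, had 1.05 ± 0.50 on 3.52 CPM after water and 1.75 CPM before (medians; adjusted p = 0.324).

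The same genes were read in the ethanol libraries, which were taken after the same number of days. The changes from the start after water and after ethanol share the 6 libraries before pretreatment, so only values are set side by side. Of the 31 genes named for adjusted p, fold or lack of a RefSeq match, the 16 that rose had log2 values of 0.89 to 2.62 after ethanol relative to the start. Of the 15 that fell, Bevul.3G115600 had no read after ethanol, and the other 14 had log2 values of -6.12 to -0.67. The direct test of ethanol against water called 1 gene of all those tested (0.00708%), and it is among them: Bevul.5G150600 held 17.3, 21.7 and 29.3 CPM after ethanol against 42.3, 68.1 and 76.3 CPM after water (log2 difference -1.52 ± 0.27; adjusted p = 0.0383 by edgeR). Bevul.3G135400 held 40.7, 49.4 and 71.8 CPM after ethanol, all below the water libraries, but its difference of -0.79 ± 0.19 did not pass (adjusted p = 0.377).

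**Figure D5:**
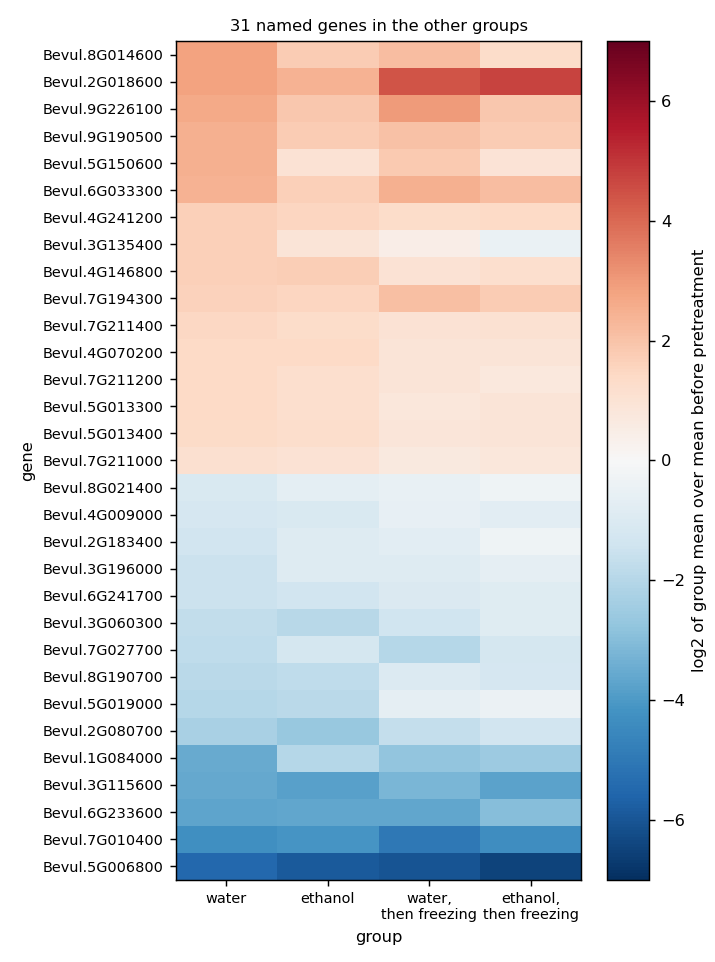
The log2 ratio of each group's mean CPM over the mean before pretreatment, after adding 0.5 CPM to both, for the 31 named genes (rows) in 4 groups (columns). Red is above and blue below the start, Bevul.2G018600 is highest in the frozen groups at 4.39 and 4.73, and Bevul.5G006800 is lowest throughout.

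The group means of freezing after ethanol against ethanol use none of the 12 libraries, so the called genes can be counted in that comparison. Each gene's estimate of spread comes from all 30 libraries and is shared by both comparisons, so their calls are not fully independent. All tested genes rose with freezing in 5.78% and fell in 6.53%. Since well-covered genes are called more often in both, genes averaging 20 CPM or more are compared: of these, 14.3% rose and 20.8% fell with freezing. Of the 160 such genes that had risen over the 3 days in water, 24 rose (15.0%) and 32 fell (20.0%), shares near those of all such genes. Of the 145 that had fallen, 31 rose (21.4%) and 20 fell (13.8%). The 24 and 31 are 4.8% and 6.2% of the well-covered genes that rose with freezing, and the 32 and 20 are 4.42% and 2.76% of those that fell. This comparison was added after earlier results were known, and no test of the shares was made.

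Single genes differed in this, and 3 chosen after their values were seen are given. Bevul.2G018600 held 47.5, 96.2 and 144 CPM after ethanol and freezing against 9.73, 17.1 and 36.1 CPM after ethanol (log2 change 2.33 ± 0.39; adjusted p = 2.99e-05 by edgeR). Bevul.3G135400 held 15.5, 19.0 and 25.0 CPM after ethanol and freezing against 40.7, 49.4 and 71.8 CPM after ethanol (log2 change -1.37 ± 0.20; adjusted p = 2.81e-06). Bevul.5G019000, which had fallen over the 3 days, held 59.5, 102.6 and 206 CPM after ethanol and freezing against 28.3, 40.4 and 74.1 CPM after ethanol (log2 change 1.47 ± 0.30; adjusted p = 0.000475). Of these 3 only Bevul.5G019000 had overlapping groups.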

How the data were processed

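Messenger RNA of 30 shoot libraries in 5 groups was measured, and groups were taken from the sample titles. The authors deposited whole read counts per gene, per the file headers in featureCounts layout. The submitters' processing notes name bcl2fastq, Trimmomatic, HISAT2, featureCounts and DESeq2, without versions, and the build TAIR10, whereas the file headers name chromosomes of beet EL10.2. A second deposited table holds a signal, each library's count over 1 size factor (relative spread at most 1.2e-09), and was used for that check only. No source used here states the strand setting of the counting. A neighbour overlaps 582 genes.

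The members and lists were chosen with earlier results of these data known. The count analysis used edgeR 4.0.16 in R 4.3.3: filterByExpr by group (14128 genes, 99.92% of reads), TMM factors and a quasi-likelihood fit of 5 group means to all 30 libraries, with contrasts tested on 2 sides, Benjamini-Hochberg adjustment and a threshold of 0.05. The fit was also run on simulated counts drawn from its own model, which cannot show that the calls are sound for these libraries. Standard errors are the log2 change divided by the square root of F. Other fits used relative log expression scaling, no filter, a filter of 5 CPM, the 12 libraries alone, the replicate number as a block, limma 3.58.1 (voom), DESeq2 1.42.0 and each compared library left out. Fits without ethanol replicate 4, the library of lowest total, were an addition made with the data in view. Permutation tests were exact and used Python 3.11.15 with scipy 1.17.1. Counts are reads, not molecules.

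Identifiers were paired with RefSeq's EL10.2 genes by position, each covering at least 0.5 of the other, which matched 16268 genes (75.36%). Named genes were the 10 matched genes with the lowest adjusted p and the 4 with the largest fold in each direction, with at least 5 CPM in the higher group, 2 unmatched genes in each direction, and genes with a symbol; others are said to be chosen afterwards. Planned gene lists by description found 0 genes, and planned looks at promoters and proteins were not made, since no descriptions or sequences were used here.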

Additional observations from a re-analysis of the deposited data

Results flagged for a closer look

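In 232 groups of 6 libraries, 19 had a library far from the other 5. All named genes were screened in the water libraries and those before pretreatment. In the ethanol and frozen groups only the 31 genes named for adjusted p, fold or lack of a RefSeq match were screened. Chance gives about 1 in 20 only where values follow a normal distribution, which CPM need not. Where the other 5 libraries hold no read, any read at all makes a library far. Water libraries far above the others were replicate 1 for Bevul.9G170700 (3093 CPM against a median of 1795) and Bevul.6G233600 (0.414 CPM against 0), replicate 5 for Bevul.3G115600 (0.437 CPM against 0) and replicate 3 for Bevul.1G083900 (17.9 CPM against 2.46). Water replicate 6 was far below the others for Bevul.8G032600, at 5.83 CPM against a median of 11.3.

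Before pretreatment, the far library was replicate 4 for Bevul.9G226100 (10.9 CPM against a median of 7.21), replicate 6 for Bevul.8G014600 (8.82 CPM against 1.47), replicate 3 for Bevul.7G010400 (80.6 CPM against 29.4), replicate 2 for Bevul.8G021400 (194 CPM against 116.95) and replicate 1 for MYB12 (Bevul.5G251800; 8.22 CPM against 1.07).

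In the other groups the far libraries are those for the 31 genes screened there, and other genes were not examined. After ethanol it was replicate 1 for Bevul.1G084000 (43.7 CPM against a median of 12.1) and Bevul.6G233600 (0.428 CPM against 0), and replicate 2 for Bevul.7G010400 (6.50 CPM against 0.666). After water and freezing it was replicate 5 for Bevul.7G211000 (1153 CPM against 840.0) and Bevul.6G233600 (0.453 CPM against 0), and replicate 6 for Bevul.6G241700 (400.1 CPM against 248). After ethanol and freezing it was replicate 2 for Bevul.4G009000 (84.0 CPM against 68.7), replicate 5 for Bevul.3G115600 (0.0543 CPM against 0) and replicate 1 for Bevul.7G010400 (4.28 CPM against 0.901).

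The change of Bevul.5G150600 from the start was smaller after ethanol than after water, by -1.52 on the log2 scale in the direct test of the groups.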

How the results depend on the processing

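DESeq2 called 347 higher and 302 lower genes. With the 12 libraries fitted alone and a replicate block, 221 genes were called, against 437, with 0.963% of 12045 genes higher and 0.872% lower. The calls of Bevul.6G033300 (adjusted p = 0.0718), Bevul.9G190500 (0.0935), Bevul.8G014600 (0.0566) and Bevul.1G033300 (0.0579) were lost in that block fit by edgeR. So were those of Bevul.7G211700 (0.188), Bevul.8G032600 (0.163) and Bevul.9G071300 (0.0872). In the 30-library fit the replicate block gave 216 and 204. The numbers share no stated origin, and deviations of same-numbered libraries correlated at -0.019 to 0.026 across genes, within the -0.036 to 0.031 of the 30 other pairs. Under every other setting tried the counts in each direction stayed within 1.5 times. Leaving out 1 compared library gave 174 to 213 higher and 144 to 207 lower genes, 320 to 420 in all. Of the genes called, DESeq2 also called 222 of the 231 and 198 of the 206, and limma-voom 182 and 182. Fitted alone without a block, the 12 compared libraries gave 181 higher and 187 lower genes of 12045 tested. Among these were 163 of the 231 and 155 of the 206, so the other calls depended on the wider fit. That fit by edgeR lost the calls of Bevul.7G211700 (adjusted p = 0.0665), Bevul.9G071300 (0.074) and Bevul.8G032600 (0.0529). No named gene changed direction while called in 1524 refits of single genes, 63 of which lost a call, spread over 9 genes, and 2 gained one. Of the 31 genes named by rule, 28 kept their call in every fit that gave a value. The planned change of promoter window was not run. Depth limits genes below 5 CPM.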
